A study of Mus musculus with 12 samples.

Results

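The regions described here are the m6A peaks annotated to 5' UTRs in hippocampal RNA, in wild-type (WT) mice and in Tyrobp-/- mice. They were taken by annotation alone, as every peak whose label in the deposited lists begins with 5' UTR: 6348 of 33622 peaks in WT mice, 6058 of 34935 peaks in Tyrobp-/- mice, and 1011 of 5640 peaks in a table that sets the genotypes side by side. The mice were males of C57BL/6 background aged 6 months. The Tyrobp-/- animals carry a small TALEN-made deletion in exon 2 of Tyrobp, in every cell, and the WT animals were their littermates. Tyrobp encodes an adaptor of TREM2 and other receptors on microglia. RNA of 3 mice was pooled into each sample, 3 samples per genotype were used, and each gave an immunoprecipitated (IP) library and an input library for methylated RNA immunoprecipitation sequencing (MeRIP-seq). Peaks were called on the 3 samples of a genotype together, so each peak has 1 value per genotype and no spread between replicates; intervals and Fisher's exact tests on peaks therefore cover counting error only.

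N6-methyladenosine (m6A) is written on mRNA by the METTL3-METTL14-WTAP complex, mostly near stop codons and in 3' UTRs, at sites with a GGAC core, and is removed by FTO and ALKBH5. Methylation near the 5' end is less common and is known for its part in cap-independent initiation of translation, as described for heat shock mRNAs. The antibodies used in MeRIP-seq also bind m6Am, which PCIF1 makes at the first transcribed base of many mRNAs when that base is an adenosine, so a 5' UTR peak can hold either mark. The method resolves neither the base nor the share of molecules that carry it. In whole hippocampus, fewer cells of a type and less methylated RNA per cell cannot be told apart.

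Start sites that lay inside peaks are shown for genes discussed later, because the base at the start decides whether m6Am is possible there. The windows are from RefSeq (GRCm38.p6), run 5' to 3' from 5 bases before the annotated start through 25 bases from it, and carry in capitals the first transcribed base and any GGACT. The first 5 are starts of strongly enriched or strongly differing peaks and lay inside an exonic block of a 5' UTR peak in both genotypes.
Senp3 (chr11:69682060-69682089, minus strand): gccgtGGGACTgccacacgcggcaagccag
Gtpbp2 (chr17:46161027-46161056, plus strand): cctacAgtgggccacaccccgctctcctcc
Tmem114 (chr16:8425112-8425141, minus strand): gtcttGtgagcccagtcttcttgaggtttc
Fads2 (chr19:10101479-10101508, minus strand): caggaGagggaccgtcggtgttgcgagccg
Gspt1 (chr16:11254301-11254330, minus strand): cagacGggaactaccgaggcgaaggtacgg
The next 6 belong to genes induced by neuronal activity. The Bdnf and Jun starts lay inside 5' UTR peaks of both genotypes, and those of Dusp1 and Nr4a3 inside WT peaks.
Bdnf (chr2:109674695-109674724, plus strand): cttatTaaagcagtagccggctggtgcaga
Bdnf (chr2:109677027-109677056, plus strand): tctctAcctctccatcgccctcacgatcct
Bdnf (chr2:109694404-109694433, plus strand): ctgttCactgtcacctgctctctagggagt
Jun (chr4:95052198-95052227, minus strand): taagtGttgagctcaggctggataaGGACT
Dusp1 (chr17:26508448-26508477, minus strand): cgcgcAgtgaaGGACTggcgggaggaaagc
Nr4a3 (chr4:48045300-48045329, plus strand): acagaCacacgcgcgctcacacgctccgca
Of these starts, those of Gtpbp2, Dusp1 and the Bdnf window at chr2:109677027-109677056 begin with an adenosine.

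Among RefSeq starts inside 5' UTR peaks, adenosine starts were not more frequent than in RefSeq as a whole. First bases were examined only where a RefSeq start lay inside an exonic block: 1795 of 6348 WT and 1789 of 6058 Tyrobp-/- 5' UTR peaks. These peaks together covered 1817 and 1799 starts. The first transcribed base was A at 32.0% (WT) and 31.9% (Tyrobp-/-) of these starts and at 34.4% of all 32851 starts. It was G at 46.2% and 47.0%, against 35.6%. GGACT was found on the transcript strand in the first 50 bases of 5.94% (WT) and 5.56% (Tyrobp-/-) of these starts and of 5.76% of all starts, and its reverse complement AGTCC in 6.00% and 6.28%, against 4.87%. The median GC content of those 50 bases was 64.0% at starts inside peaks in both genotypes and 56.0% over all starts. Median fold enrichment of the peaks was 6.00 over A starts and 6.84 over G starts in WT, and 6.36 and 6.67 in Tyrobp-/- mice. These are descriptions with no test, and the RefSeq set was not limited to expressed genes.

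The 12 libraries held between 61189368 and 73554506 valid reads. GC content in the IP libraries was 50.2%, 49.2% and 49.8% in WT and 49.3%, 48.5% and 49.0% in Tyrobp-/- mice, so the ranges overlapped, while the difference of Tyrobp-/- minus WT had the same sign in each of the 3 replicate numbers (-0.91, -0.70 and -0.72 percentage points); the means were 49.7% ± 0.541 and 48.9% ± 0.442 (SD, n = 3 each; exact permutation test, two-sided, p = 0.2, where the smallest possible p is 0.1). All input libraries lay between 47.6% and 48.0%. The part of GC content in the results on 5' UTRs was not tested. Tyrobp and Trem2 had 0 peaks in either genotype, so the peak lists hold no check of the targeted gene. Genes of neurons, astrocytes and oligodendrocytes all had peaks in both lists (8 of 8, 6 of 6 and 6 of 6), and 13 of 17 genes of microglia and TYROBP signalling had them in each list.

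Peaks in 5' UTRs made up a smaller share of all peaks in Tyrobp-/- than in WT mice. They were 18.9% of the WT list (95% exact binomial interval 18.5% to 19.3%) and 17.3% of the Tyrobp-/- list (17.0% to 17.7%), which differ by -1.54 percentage points (two-sided Fisher's exact test, p = 1.7e-07). The number of 5' UTR peaks was lower in Tyrobp-/- mice while the number of 3' UTR peaks was higher, 17229 against 15876. The difference lay between -1.25 and -1.82 percentage points when peaks were limited to a fold enrichment of at least 4, to a peak-calling FDR below 1e-5, to 1 peak per gene or to 1000 bp from the transcript start.

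**Figure D1:**
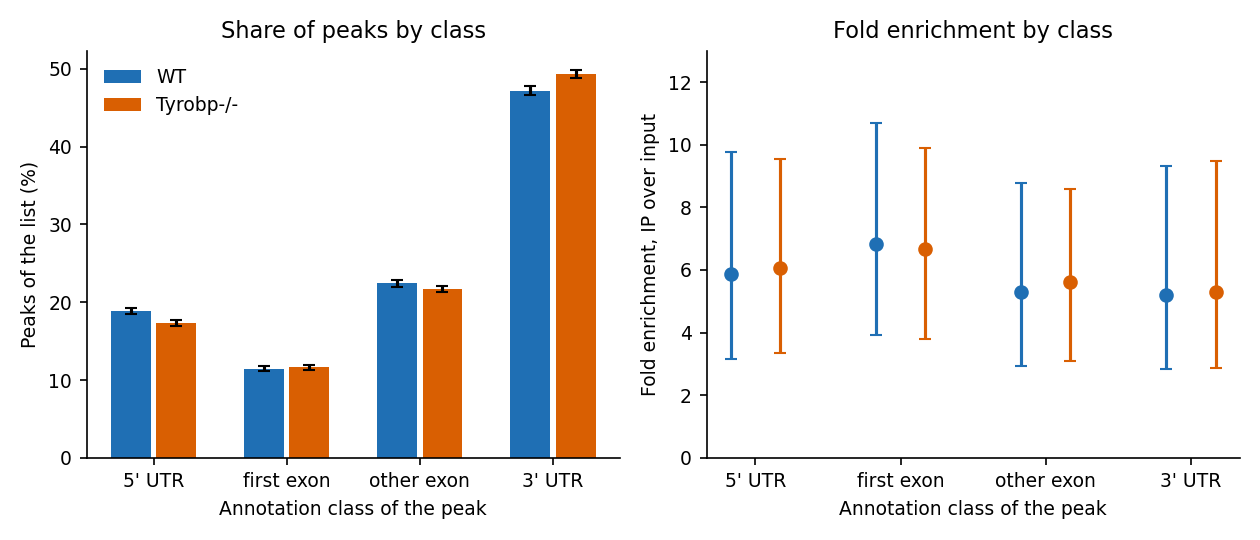
Share of each annotation class among the peaks of a genotype (left; bars, with 95% exact binomial intervals) and fold enrichment of IP over input by class (right; points are medians and lines run from the lower to the upper quartile). Peaks in 5' UTRs were 18.9% of the WT and 17.3% of the Tyrobp-/- list, and their median fold enrichment lay above that of 3' UTR peaks in both genotypes.

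Most 5' UTR peaks lay over a transcript start. The distance to the start of the annotated transcript was 0 for 4379 WT peaks (69.0%) and 4232 Tyrobp-/- peaks (69.9%), within 1 to 100 bp for 6.13% and 5.66%, within 101 to 1000 bp for 11.7% and 11.3%, and above 10000 bp for 5.95% and 5.65%. Peaks over the start had a median fold enrichment of 6.26 (WT) and 6.34 (Tyrobp-/-), and peaks 1 to 100 bp away had medians of 4.88 and 4.97. Peaks 1001 to 10000 bp away, in later exons of 5' UTRs, reached 5.92 and 5.93.

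Compared with other classes, 5' UTR peaks more often crossed introns. The exonic length of a peak, the sum of its blocks, had a median of 298 bases (WT) and 271 bases (Tyrobp-/-), and 54.3% and 55.4% of the peaks had a single block, against 75.0% and 77.3% of all other peaks. A span over 10000 bp, introns included, was found for 13.1% and 12.6% of 5' UTR peaks and for 3.88% and 3.22% of all others. The label says only that a peak touches a 5' UTR of some transcript: 231 WT and 228 Tyrobp-/- peaks covered their whole transcript. In addition, 21.5% and 21.2% of 5' UTR peaks overlapped another 5' UTR peak of the same list, so neighbouring peaks are not independent.

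The peaks fell in 4828 genes in WT and 4635 in Tyrobp-/- mice, which are 30.5% and 28.7% of all genes with a peak. A single 5' UTR peak was found in 3681 and 3555 of these genes, 2 in 890 and 831, and 3 or more in 257 and 249. Of the genes with a 5' UTR peak, 3504 were the same in both genotypes, 72.6% of the WT genes and 75.6% of the Tyrobp-/- genes. Of the 1324 genes found in WT alone, 1016 (76.7%) still had a peak of some class in Tyrobp-/- mice, and of the 1131 found in Tyrobp-/- mice alone, 812 (71.8%) had one in WT.

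Most genes with a 5' UTR peak also had a 3' UTR peak, but this share has no like-for-like counterpart in other genes. Other genes with a peak necessarily held one outside 5' UTRs. By contrast, 1330 WT and 1169 Tyrobp-/- genes with a 5' UTR peak (27.5% and 25.2%) had no peak of another class. Of the genes with a 5' UTR peak, 63.3% in WT and 66.6% in Tyrobp-/- mice also had a 3' UTR peak; of the other genes with any peak, 67.4% and 69.3% had one. Within those 3056 and 3086 genes, the most enriched 5' UTR peak had a median fold enrichment of 6.53 and 6.67 and the most enriched 3' UTR peak one of 6.84 and 6.70, and the 5' UTR peak was the higher of the pair in 47.3% and 46.6%. Across these genes, which share libraries and are not independent, Spearman's rho between both values was 0.081 and 0.10.

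Fold enrichment, the IP signal over input as scaled by the peak caller, was higher in 5' UTR peaks than in the other peaks of either genotype. The median was 5.86 (quartiles 3.17 and 9.77) for WT and 6.06 (3.34 and 9.53) for Tyrobp-/- mice, where 3' UTR peaks had medians of 5.20 and 5.28. A fold enrichment of at least 4 was reached by 65.2% of WT 5' UTR peaks, where 63.2% of all WT peaks reached it, and by 67.6% of Tyrobp-/- 5' UTR peaks, where 64.3% of all Tyrobp-/- peaks did. Set against all other peaks, this share was 2.41 percentage points larger in WT (two-sided Fisher's exact test, p = 0.000339) and 3.92 larger in Tyrobp-/- mice (p = 6.1e-09). Peaks in first exons outside the 5' UTR were more enriched still, with medians of 6.84 and 6.67. An FDR below 1e-5 was given to 62.0% and 59.8% of 5' UTR peaks and to 64.9% and 64.1% of all other peaks. By class, it was given to 78.6% and 77.5% of 3' UTR peaks, to 50.8% and 49.9% of peaks in other exons and to 36.3% and 33.6% of first-exon peaks, so that 5' UTR peaks lay between these classes.

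Part of the fold enrichments took only a few values. In WT, 1160 of the 5' UTR peaks (18.3%) had a fold enrichment equal, at 3 significant digits, to a whole multiple from 2 to 10 of 0.977, with 6.84 alone given to 250 peaks. In Tyrobp-/- mice, 1192 peaks (19.7%) sat on such multiples of 0.953, with 6.67 given to 248. The WT values are 1.95, 2.93, 3.91, 4.88, 5.86, 6.84, 7.81, 8.79 and 9.77, and those in Tyrobp-/- mice 1.91, 2.86, 3.81, 4.76, 5.72, 6.67, 7.62, 8.58 and 9.53. Several genes named further on sit on one of them, not always marked as such. Among all other peaks these shares were 15.3% and 15.8%. Of the 5' UTR peaks at such values, 19.7% and 18.5% had an FDR below 1e-5, against 71.5% and 69.9% of the rest. Multiples above 10 were not looked for. Larger fold enrichments, among them most values of the extreme ratios named further on, were not checked and may be such multiples too. Gspt1 and Tent5a, for example, had the same WT value, 80.1. The read counts behind a peak were not analysed here, so the depth of each value is unknown. Whether the recurring values rest on input counts at their minimum was not tested; a fold enrichment of that kind would be set by a floor in the input, and a ratio between genotypes built on it is uncertain.

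The 10 most enriched 5' UTR peaks were taken among peaks matched between the genotypes, each the other's best overlap, with an FDR below 1e-5 in both. All lay over a transcript start. The highest was a peak of chromosome 5 (123252132 to 123256100 in WT, GRCm38), at 146 in WT and 386 in Tyrobp-/- mice. It was labelled as the ribosomal protein pseudogene Rpl35a-ps6 (minus strand) in WT and as Wdr66 (plus strand) in Tyrobp-/- mice. With labels on opposite strands, its gene is uncertain, and the values may belong to different transcripts. Inha, which encodes the alpha subunit of inhibin, was at 322 in WT and 151 in Tyrobp-/- mice. Kcnj11, the pore-forming subunit of ATP-sensitive potassium channels, was at 78.1 and 194, in a peak of 1968 and 1938 exonic bases that runs well past the start. These values differ by more than 2-fold between genotypes in either direction.

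Several of these peaks differed less between genotypes. The peak over the start of Senp3, a SUMO protease, had the same ends in both lists (69680684 to 69682084 on chromosome 11) and fold enrichments of 97.3 in WT and 85.3 in Tyrobp-/- mice. That of Fads2, the delta-6 fatty acid desaturase, also had the same ends (10101357 to 10101746 on chromosome 19), at 77.2 and 91.1. Rhot2, a GTPase of mitochondrial transport, was at 97.7 and 145. Gtpbp2, a GTPase of ribosome rescue, was at 126 and 85.3. Mapk3, the kinase ERK1, was at 112 and 67.2, and Kctd1 at 167 and 110. Tmem114 differed most within this set, at 49.6 in WT and 204 in Tyrobp-/- mice, with exonic lengths of 510 and 480 bases.

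Long 5' UTR peaks were found in both genotypes far more often than short ones. No peak of the Tyrobp-/- list overlapped 1532 of the WT 5' UTR peaks (24.1%), where 20.0% of all WT peaks had no overlap. No WT peak overlapped 1340 of the Tyrobp-/- 5' UTR peaks (22.1%), where 22.1% of all Tyrobp-/- peaks had none. In WT, 5' UTR peaks were found in both genotypes less often than other peaks, 75.9% against 81.0% (two-sided Fisher's exact test, p = 2.2e-19). In Tyrobp-/- mice the shares were 77.9% and 77.9% (Fisher's exact test, p = 0.932), and with an FDR below 1e-5 in both lists the order turned, 90.2% against 87.6% (p = 9.67e-06).

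By exonic length, the share of WT 5' UTR peaks found in both genotypes was 41.0% up to 100 bases, 54.8% from 101 to 200, 78.2% from 201 to 400, 93.9% from 401 to 800 and 99.5% above. For other WT peaks it was 50.1%, 64.4%, 81.0%, 95.3% and 99.4%. Up to 400 bases the WT 5' UTR peaks thus lay under the other WT peaks, with intervals that did not overlap. In Tyrobp-/- mice, 5' UTR peaks were at 44.8%, 60.2%, 81.0%, 95.6% and 99.7%, and other peaks at 44.0%, 55.7%, 79.7%, 95.9% and 99.6%. There the 5' UTR peaks lay above the others from 101 to 200 bases (intervals 57.4% to 63.0% and 54.3% to 57.1%), and the intervals overlapped in the other length classes. Above 800 bases nearly every peak of either class had a counterpart. Fold enrichment went up with length too, from a median of 3.32 up to 100 bases to 10.5 above 800 in WT 5' UTR peaks.

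**Figure D2:**
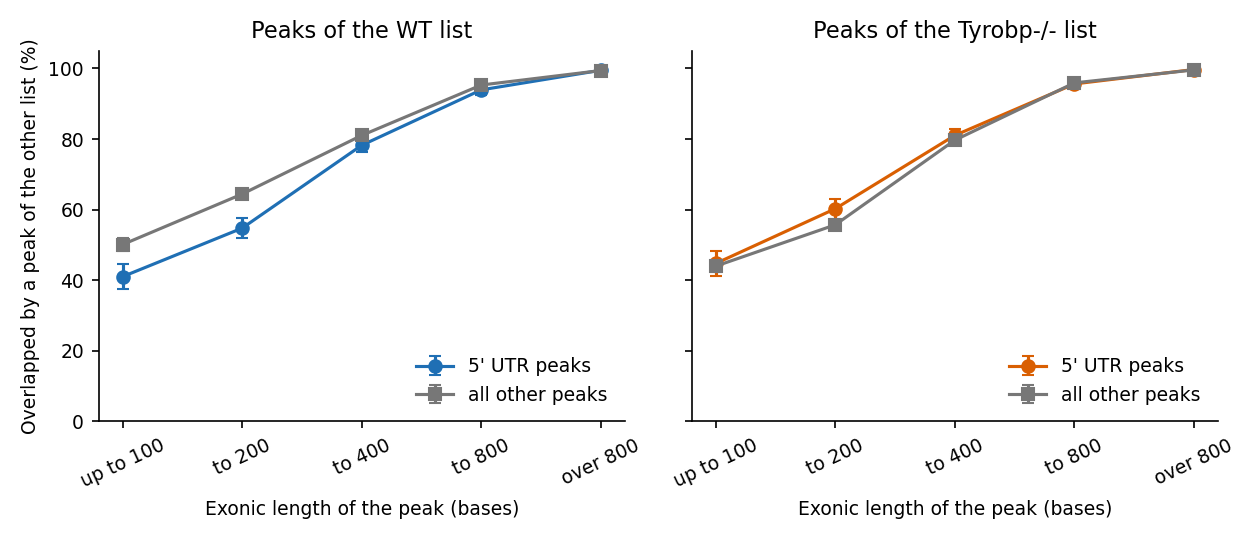
Percent of peaks overlapped by at least 1 bp by a peak of the other genotype, by exonic length, for the WT list (left) and the Tyrobp-/- list (right). Circles are 5' UTR peaks, squares all other peaks, and bars 95% exact binomial intervals; the share in WT 5' UTR peaks ran from 41.0% in the shortest to 99.5% in the longest.

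Peaks found in 1 genotype were short and of low confidence. Their median exonic length was 151 bases (WT) and 150 bases (Tyrobp-/-), against 361 and 358 for the 5' UTR peaks found in both, and their median fold enrichment 4.39 and 5.24, against 6.34 and 6.26. An FDR below 1e-5 was given to 327 of the 1532 WT peaks (21.3%) and to 179 of the 1340 Tyrobp-/- peaks (13.4%). Recurring values held 36.0% and 42.0% of these peaks. Peaks of other classes found in 1 genotype had much the same traits, with a median length of 151 and 150 bases, a median fold enrichment of 4.39 and 4.00, an FDR below 1e-5 in 19.5% and 22.1%, and recurring values in 37.3% and 35.6%.

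The peaks of this kind with the lowest FDR included several of low enrichment. In WT, Nrgn, which encodes the calmodulin-binding protein neurogranin, was at 1.86, Hpca, the calcium sensor hippocalcin, at 1.5, and the transcriptional repressor gene Zbtb18 at 3.20. Cort, the neuropeptide cortistatin, was at 9.60. Nanp, a phosphatase of sialic acid synthesis, stood out at 90.8, in a peak of 923 exonic bases on chromosome 2 (151030250 to 151039398) with no counterpart in Tyrobp-/- mice. In Tyrobp-/- mice, Atp5j2, a subunit of ATP synthase, was at 2.05, Serinc1 at 1.62, the astrocyte membrane protein gene Mlc1 at 1.81, Dynll2, a dynein light chain, at 6.74, and Fam19a5 at 39.5 over 61 exonic bases. A peak missing from a list was not called there, which does not give its enrichment in that genotype.

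Every 5' UTR peak can be accounted for. Of the 4816 WT peaks overlapped by a Tyrobp-/- peak, 3919 were paired with a 5' UTR peak, 412 with a peak of another class (127 in 3' UTRs, 128 in first exons and 157 in other exons) and 485 were no best match. Of the 4718 Tyrobp-/- peaks overlapped by a WT peak, 270 were paired with another class and 529 were no best match. Within the 3919 pairs the ends were identical in 512, the exonic lengths were within 1.25-fold in 2252 (57.5%), and the gene labels differed in 117.

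In the 3919 pairs of 5' UTR peaks, fold enrichment was centred on no change. The median log2 ratio of Tyrobp-/- to WT was 0.01, with an SD of 0.78 over pairs, against a median of 0.05 over all 24189 pairs and 0.09 for 12527 pairs in 3' UTRs. Fold enrichment was at least 2-fold higher in Tyrobp-/- mice in 335 pairs (8.55%), where 7.04% of all pairs were, and at least 2-fold lower in 331 (8.45%), where 6.24% of all pairs were. Against all other pairs, both shares were larger in 5' UTRs, by 1.80 percentage points for higher values (two-sided Fisher's exact test, p = 8.61e-05) and 2.63 for lower values (p = 1.93e-09). The excess of higher values was lost at a threshold of 1.5-fold, with 16.9% against 16.0% (Fisher's exact test, p = 0.169), while that of lower values was not (18.0% against 12.5%, p = 4.26e-19). First-exon pairs differed more often still, with 11.5% higher and 11.8% lower.

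Part of these differences went with peaks that cover different bases in each list. Among the 2066 pairs of 5' UTR peaks with a reciprocal overlap of 50% and exonic lengths within 1.25-fold, 4.55% were at least 2-fold higher and 5.47% at least 2-fold lower in Tyrobp-/- mice. Both shares remained above those of the other pairs chosen in the same way, 3.58% (Fisher's exact test, p = 0.0414) and 3.02% (p = 1.8e-07).

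**Figure D3:**
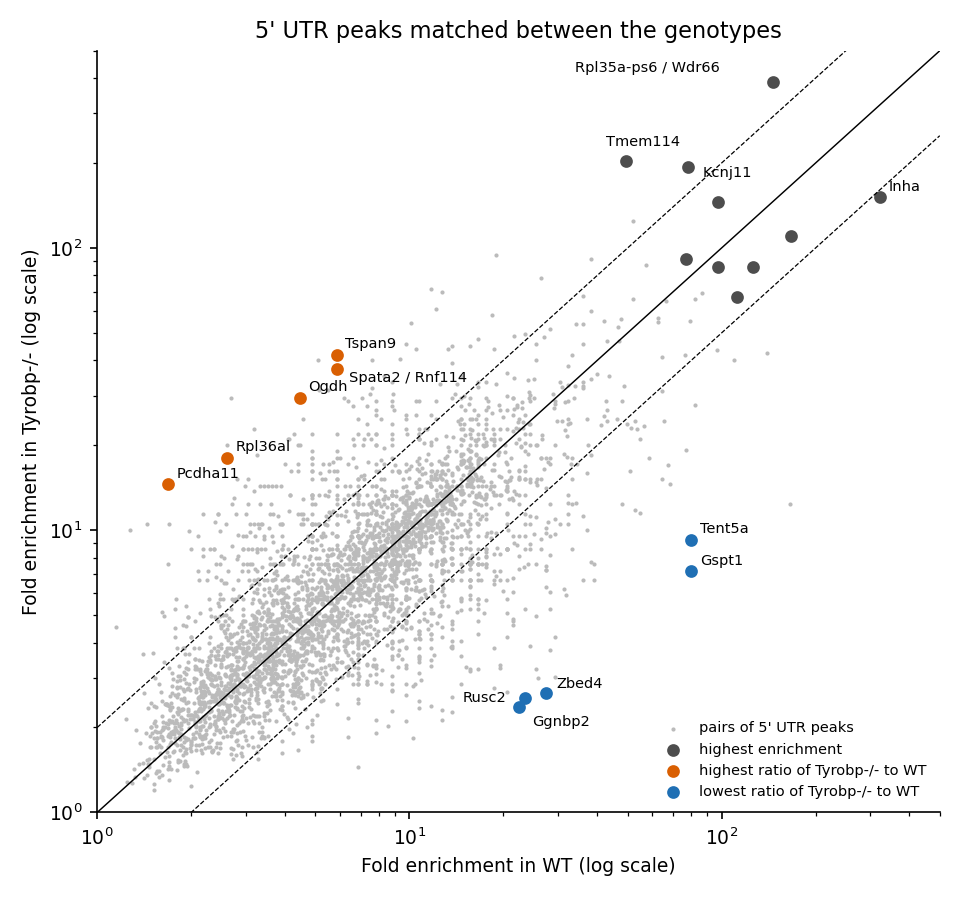
Fold enrichment of the 3919 matched pairs of 5' UTR peaks in WT (x axis) and Tyrobp-/- mice (y axis), both on log scales; the solid line marks equal values and the dashed lines a 2-fold difference. Grey points are single pairs, and larger points the most enriched pairs and those with the highest and lowest ratios, such as Tmem114 (49.6 and 204) and Gspt1 (80.1 and 7.18).

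The lowest ratio was in Gspt1, which encodes the translation termination factor eRF3a: the peak over its start on chromosome 16 (11254057 to 11254325 in WT) was at 80.1 in WT and 7.18 in Tyrobp-/- mice, an 11.2-fold difference, with exonic lengths of 269 and 329 bases. Tent5a, a non-canonical poly(A) polymerase, was at 80.1 and 9.27, over 1822 and 1493 bases. In the other 3 pairs with the lowest ratios the peaks differed in extent: Zbed4 (27.3 and 2.66, over 628 and 389 bases), Ggnbp2 (22.5 and 2.36, over 718 and 240) and Rusc2 (23.4 and 2.55, over 1316 and 300). Only the Gspt1 and Tent5a pairs of these 5 also had lengths within 1.25-fold.

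All of the 5 highest ratios came with a longer peak in Tyrobp-/- mice. Pcdha11, a clustered protocadherin whose exons are partly shared with the rest of its cluster, was at 1.69 and 14.6 over 181 and 1408 bases. Tspan9, a tetraspanin, was at 5.86, a recurring value, and 41.9 over 421 and 451 bases. Its Tyrobp-/- peak spans 1 more intron, and the reciprocal overlap of the spans was only 1.25%. Rpl36al, a ribosomal protein gene with near-identical copies whose reads may be split between them, was at 2.61 and 18.1. Ogdh, a subunit of the 2-oxoglutarate dehydrogenase complex, was at 4.47 and 29.5 over 810 and 1440 bases. The last, labelled Spata2 in WT and Rnf114 in Tyrobp-/- mice, was at 5.86, again a recurring value, and 37.2.

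Pairs of like length give a second view, chosen after values had been seen. Mgat1, an enzyme of N-glycan synthesis, had a peak of the same ends and 959 exonic bases in both lists (49244191 to 49249042 on chromosome 11), at 11.7 in WT and 71.5 in Tyrobp-/- mice. Trim45 was at 12.7 and 69.6, Dok4 at 10.1 and 54.3 and Thyn1 at 2.18 and 11.4. In the other direction, Sin3a, a transcriptional corepressor, was at 39.1 and 6.67, the latter one of the recurring values. Sipa1l3 was at 28.3 and 5.24, and Eef1d, a subunit of the elongation factor eEF1 complex, at 54.9 and 11.5. Multiples above 10 were not looked for, so the larger values here were not checked for recurrence and may be recurring ones too. These differences are between 1 pooled value per genotype and have no replicate check.

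Jakmip1 had the most 5' UTR peaks, 10 in WT and 9 in Tyrobp-/- mice, with fold enrichments from 1.84 to 17.6 and from 1.52 to 16.2. Foxq1, a forkhead transcription factor gene, had 8 in each, from 4.88 to 19.5 and from 5.72 to 21.0. Sgo2a, a shugoshin of chromosome cohesion, had 7 and 8, and Adra2a, the alpha-2A adrenergic receptor gene, 7 and 7. Of the 7 WT peaks of Bdnf and its 8 Tyrobp-/- peaks, every one had a counterpart.

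Bdnf, the gene of brain-derived neurotrophic factor, is transcribed from alternative promoters whose first exons are each spliced to a common coding exon, and its 5' UTR peaks lay over several of them. Near the first start, the WT list held a peak of 61 bases (109674700 to 109674760 on chromosome 2) at 14.6 and the Tyrobp-/- list one of 121 bases at 5.60. The next peak was at 6.64 in WT and 6.83 in Tyrobp-/- mice, and the one after, from 109676154 in WT, at 12.5 and 5.01. Farther on, a pair that overlapped at 1 end only, with 479 and 240 exonic bases, was at 5.23 and 15.2. The pair ending at 109694581 was at 8.79, a recurring value, and 33.4. The peak farthest downstream, which spans a long intron, was at 15.4 and 15.1. Values over the upstream exons thus differed between genotypes in both directions, with unequal lengths, and those of the downstream peak lay close together.

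**Figure D4:**
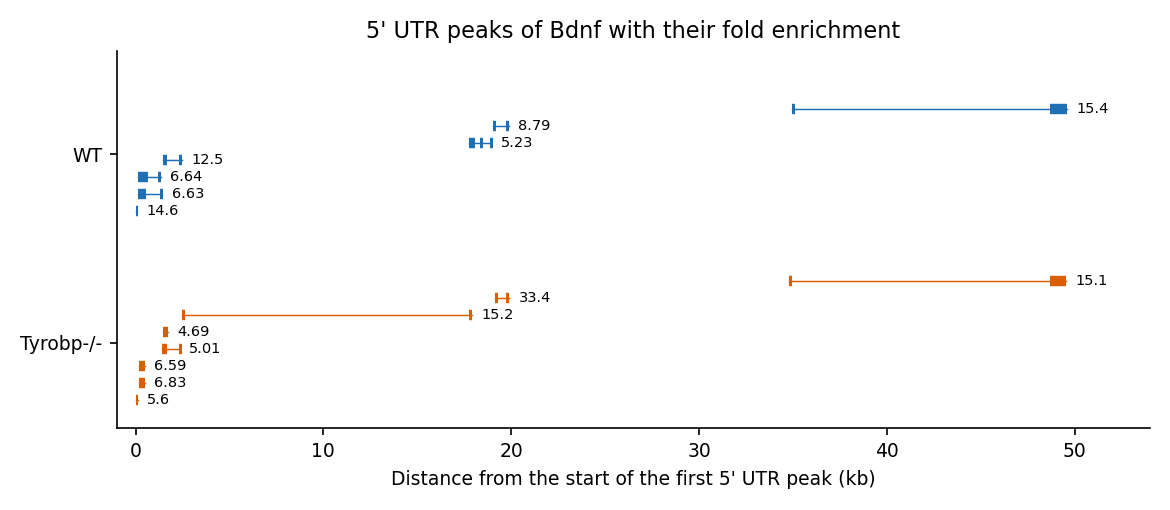
The 5' UTR peaks of Bdnf in WT (above) and Tyrobp-/- mice (below) along the gene, by distance in kb from the start of the first peak; thick bars are exonic blocks, thin lines the introns a peak spans, and the number beside each peak is its fold enrichment. The peak farthest downstream was at 15.4 in WT and 15.1 in Tyrobp-/- mice.

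Genes induced early by neuronal activity, such as Fos and Egr family members, were the list with the widest gap between genotypes among the 13 looked at. Of 20 such genes, 13 had a 5' UTR peak in WT and 6 in Tyrobp-/- mice, and the 6 (Jun, Junb, Homer1, Bdnf, Dusp1 and Btg2) were among the 13, so that 46.2% of the WT genes were found again, against 72.6% over all genes. Of the early genes with a peak of any class, 20 in WT and 19 in Tyrobp-/- mice, 5' UTR peaks were thus found in 13 and 6, where 30.5% and 28.7% of all genes with a peak had one. The other 7, named here after their values were seen, were Fosb, Egr2, Egr3, Npas4, Nr4a1, Nr4a2 and Nr4a3, all transcription factor genes. All 7 had 3' UTR peaks in both genotypes. The count came down to 8 in WT and stayed at 6 in Tyrobp-/- mice when an FDR below 1e-5 was required, the 8 being the same 6 with Egr3 and Nr4a1.

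The WT peaks of 5 of these 7 genes had no counterpart and were of low confidence. Fosb had peaks at 2.93 and 4.69, Egr2 at 6.84, Npas4 at 4.88, Nr4a2 at 9.77 and Nr4a3 at 4.10. These 6 peaks were between 91 and 299 exonic bases long, and the log10 of their FDR lay between -4.44 and -1.5. In enrichment they were not all low: Egr2 lay above the median of all WT 5' UTR peaks, 5.86, and Nr4a2 at their upper quartile, 9.77. The values 2.93, 4.88, 6.84 and 9.77 are recurring ones, and without peaks at such values the count of early genes was 10 in WT and 6 in Tyrobp-/- mice. Egr3 and Nr4a1 differ from them by overlapping a Tyrobp-/- peak of another class: Egr3 had a WT peak of 1764 bases at 3.70 that ran from the start to where other peaks are labelled 3' UTR, and in Nr4a1 a WT peak of 720 bases at 4.43 met a Tyrobp-/- peak of 540 bases at 5.36 labelled other exon.

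In the 6 genes found in both genotypes the values moved in either direction. Homer1, the gene of a postsynaptic scaffold protein, was at 10.6 in WT and 17.6 in Tyrobp-/- mice. Junb was at 9.66 and 7.56, Btg2 at 8.66 and 5.19, and Dusp1, a MAP kinase phosphatase gene, at 4.02 and 4.82. The Homer1 and Dusp1 pairs differed in extent, with reciprocal overlaps of 20.5% and 0.34%. Jun had a matched pair of 5' UTR peaks at 6.5 and 9.53, with a reciprocal overlap of 93.0%. It also shows how the label depends on where a peak is cut. Its single-exon transcript carried a further WT peak of 2593 bases at 34.9, labelled 5' UTR. In Tyrobp-/- mice it carried a 5' UTR peak of 925 bases at 12.1 and a 3' UTR peak of 1312 bases at 43.2.

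**Figure D5:**
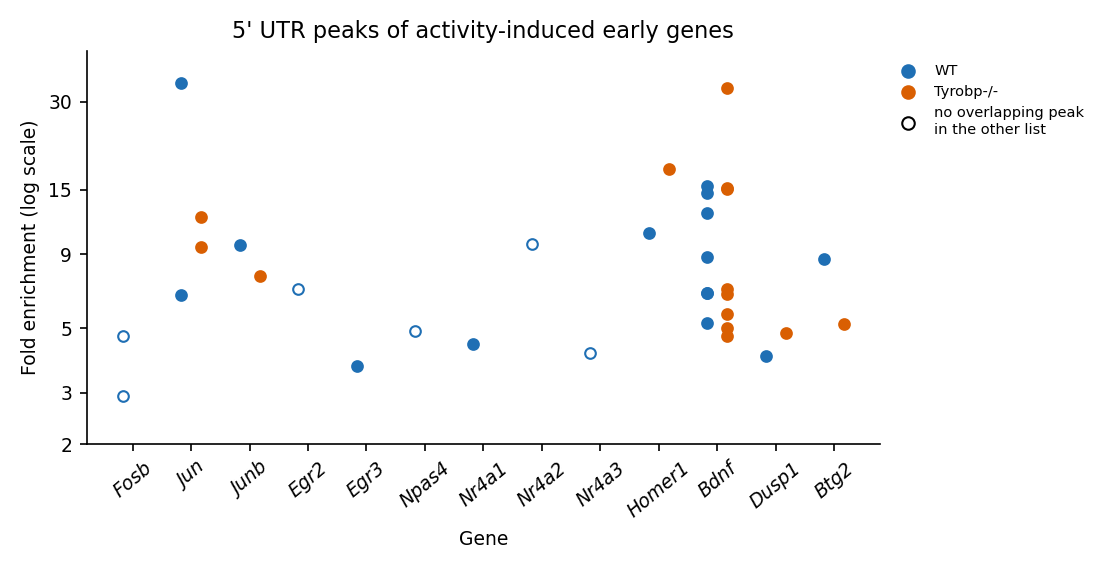
Fold enrichment (log scale) of each 5' UTR peak in the activity-induced early genes that had one, in WT (left point or points of a gene) and Tyrobp-/- mice (right). Open points had no overlapping peak in the other list; they are the 6 WT peaks of Fosb, Egr2, Npas4, Nr4a2 and Nr4a3.

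Other gene groups were looked at for the biology of 5' UTR methylation and of this tissue. Over all 13 lists, 203 genes in sum, 83 had a 5' UTR peak in WT and 74 in Tyrobp-/- mice, with 61 in both. Among the genes of these lists with a peak of any class, 172 in WT and 174 in Tyrobp-/- mice, these are larger shares than the 30.5% and 28.7% over all genes with a peak. The lists were not tested against other genes, and 30.5% and 28.7% are the background for each list below too. Of 16 heat shock and chaperone genes, 4 had one in WT and 3 in Tyrobp-/- mice. Hsp90b1, an endoplasmic reticulum chaperone, was at 1.75 and 2.98, Hsph1 at 3.98 and 2.23, and Dnajb1, a co-chaperone of HSP70, at 6.51 and 5.10. Bag3 had one peak, in WT, at 2.93.

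In the integrated stress response, where upstream reading frames in 5' UTRs govern translation, 4 of 10 genes in WT and 5 in Tyrobp-/- mice had a 5' UTR peak. Atf5 carried 3 pairs, at 6.78 and 7.37, 5.59 and 5.01, and 4.72 and 5.10. Ddit3, which encodes CHOP, carried 2, at 1.61 and 1.96, and 2.68 and 2.94. Those 5 pairs differed by less than 1.5-fold. The last pair, in Eif2ak2, the gene of the kinase PKR, was at 8.79 and 3.81 over the same 150 bases. This is a 2.31-fold lower value in Tyrobp-/- mice, but both are recurring values. The log10 FDR was only -1.03 in WT and -1.06 in Tyrobp-/- mice. A second, longer peak at 14.3 was called over the same start in Tyrobp-/- mice. Ppp1r15a, the gene of the phosphatase subunit GADD34, had a peak in each list, at 9.77 in WT and 4.36 in Tyrobp-/- mice, but the peaks did not overlap. Of 35 translation initiation factor genes, 7 and 8 had a 5' UTR peak and 5 had one in both, with Eif4g3 at 15.6 and 18.1, Eif4e2 at 3.06 and 3.05, and Eif2b2 at 2.12 and 1.89. Eif4e, the gene of the cap-binding protein, had the widest difference of that list, at 14.6 and 7.62 over the same 270 bases. The log10 FDR of these peaks was only -2.82 in WT and -0.762 in Tyrobp-/- mice, and 7.62 is a recurring value.

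Of 21 genes of m6A and m6Am enzymes and readers, 7 had a 5' UTR peak in WT and 6 in Tyrobp-/- mice. Rbm15b, an adaptor of the methyltransferase complex, was at 32.2 and 24.8, and its relative Rbm15 at 2.93, a recurring value, and 3.71. The demethylase gene Fto was at 3.03 and 2.72, and the nuclear reader gene Ythdc1 at 4.16 and 3.52. None of the 5 pairs in this list reached a 2-fold difference. Wtap, the regulatory subunit, had a 5' UTR peak of 1197 bases in Tyrobp-/- mice at 6.25, and Pcif1 and Alkbh5 had one in WT, at 4.05 and 14.6; each of these overlapped a peak of the other list.

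Among channels and synaptic genes, 5' UTR peaks were found in 14 of 18 potassium channel genes in WT and 12 in Tyrobp-/- mice, with 11 in both. Over all genes with a peak, 30.5% in WT and 28.7% in Tyrobp-/- mice had one in a 5' UTR. Of all WT genes with a 5' UTR peak, 72.6% had one in Tyrobp-/- mice as well. In the potassium channel list, Kcna1 was at 5.91 and 8.06 in its first pair and Kcna2 at 8.79, a recurring value, and 12. Kcna4 was at 2.46 and 3.02, and Kcna6 at 2.74 and 2.81. A pair of Kcnb2 peaks was at 20.5 and 2.67 over 181 and 61 bases. It was the only one of this list at least 2-fold lower in Tyrobp-/- mice, and 1 pair was at least 2-fold higher. The Kcnb2 pair had a reciprocal overlap of only 0.12% and log10 FDRs of -4.42 in WT and -0.822 in Tyrobp-/- mice. Of 15 ionotropic glutamate receptor genes, 6 and 7 had a 5' UTR peak, with Gria1 at 4.56 and 3.07, Gria3 at 9.99 and 9.19, Grin2a at 6.36 and 3.08 and Grin2b at 5.48 and 6.30. Of 14 postsynaptic scaffold genes, 6 and 4 had one. In Dlg4, which encodes PSD-95, the paired peaks were at 5.21 and 3.49 but met at 1 end only, with a reciprocal overlap of 0.34%. Their log10 FDR was -2.35 in WT and -2.92 in Tyrobp-/- mice. A further WT peak of Dlg4, at 1.75, had no counterpart. Dlgap3 was at 6.74 and 8.27, and Dlg1 at 2.30 and 3.47 in its longer pair. The shorter Dlg1 pair, over the transcript start, was at 3.32 and 12.4 over 61 and 151 bases. It was the only one of this list beyond 2-fold, with log10 FDRs of only -1.39 in WT and -2.3 in Tyrobp-/- mice.

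Of 17 genes of the amyloid precursor, its secretases, tau and tau kinases, 5 of the 14 with a peak of any class had a 5' UTR peak in WT and 9 of 16 in Tyrobp-/- mice, where 30.5% and 28.7% of all genes with a peak had one. Those in both were Aplp2 (3.24 and 4.55), the beta-secretase gene Bace1 (4.50 and 2.55), the alpha-secretase gene Adam10 (16.0 and 16.3), the tau kinase gene Gsk3b (23.2 and 23.0) and Mark2. None of the 5 pairs differed by 2-fold. Of the 4 in Tyrobp-/- mice alone, App was at 1.5, Mapt, the gene of tau, at 2.52, and Gsk3a at 35.3, each with no WT peak at that place and with 61, 90 and 91 exonic bases.

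Of cell type markers, 5 of 8 neuronal genes had a 5' UTR peak in WT and 3 in Tyrobp-/- mice. Over all genes with a peak, 30.5% in WT and 28.7% in Tyrobp-/- mice had one in a 5' UTR. Neurod1, a neuronal transcription factor gene, was at 37.1 in WT and 10 in Tyrobp-/- mice over 329 bases in both. Neurod6 was at 11.5 and 4.45 over 1165 and 210 bases, and Prox1 at 9.77 and 5.72, both recurring values. Pairs with another label in 1 list were not lower in Tyrobp-/- mice. The pair labelled Gm28172 (plus strand) in WT and Prox1 (minus strand) in Tyrobp-/- mice was at 5.24 and 5.48. That labelled Neurod1 in WT and Cerkl in Tyrobp-/- mice was at 4.07 and 8.58, the latter a recurring value, with log10 FDRs of -2.57 and -2.92. Among 17 genes of microglia and TYROBP signalling, 13 had a peak of any class in each list, and 6 and 5 had a 5' UTR peak. The complement genes C1qa and C1qc were at 5.63 and 4.88, and 3.22 and 2.86, and Aif1 at 3.37 and 3.57. Cx3cr1 had peaks in each list that did not overlap. All 4 astrocyte genes with a 5' UTR peak had it in both genotypes, with Gfap at 2.96 and 2.78 and Aqp4 at 5.61 and 5.59. Slc1a3 was at 7.81, a recurring value, and 3.09. Gja1 was at 2.00 and 8.58, the latter a recurring value, over 361 and 751 bases. A second Gja1 pair, with a reciprocal overlap of 94.8%, was at 2.69 and 3.22. The 2 oligodendrocyte genes Mbp and Mobp had a 5' UTR peak in both, Mobp at 3.29 and 5.07.

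In the table that sets the genotypes side by side, 1011 of 5640 peaks (17.9%, 95% interval 16.9% to 19.0%) were labelled 5' UTR, in 924 genes, and 69.3% of them lay over a transcript start. A 5' UTR peak of the WT list overlapped 770 of them, one of the Tyrobp-/- list 760, and one of either 961. Of the 579 matched pairs of 5' UTR peaks that both overlapped this table, fold enrichment was at least 2-fold higher in Tyrobp-/- mice in 84 (14.5%) and at least 2-fold lower in 74 (12.8%). The table was drawn from the same libraries by the peak caller's own comparison, so these shares describe its content and are no separate evidence. Shares for pairs of other classes in this table were not computed, so these are not shown to be particular to 5' UTRs.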

How the data were processed

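MeRIP-seq of hippocampal poly(A) RNA was analysed in 3 WT and 3 Tyrobp-/- samples, each pooled from 3 mice. Per the study's methods and the submitters' processing notes, reads were cleaned with fastp, mapped with HISAT2 to the Ensembl mouse genome (GRCm38), and peaks were called with exomePeak on the samples of a genotype together and annotated with ChIPseeker; HOMER is also named. The authors deposited for each peak a fold enrichment (the IP to input ratio, as exomePeak scales it), the p-value of IP against input and the log10 of its FDR. They also deposited the counts of valid reads and the percent of G and C bases per library. In the table that compares the genotypes, 3 columns hold the authors' log2 fold change, p-value and log10 FDR of the comparison; these were not used, and the table served for positions and annotation.

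Peaks were called shared when their spans, introns included, overlapped by at least 1 bp, and matched pairs are mutual best overlaps. Strand was not used, so an overlap or a pair can join peaks of genes on opposite strands. Two-sided Fisher's exact tests compared shares, which are given with 95% exact binomial intervals. Over the 7 peak comparisons, Benjamini-Hochberg adjustment changed no call. Sequences come from RefSeq start-site windows (GRCm38.p6). Values of 2 genes in the lists and 1 of the windows are not reported here; counts over the lists include those genes. Depth was 61189368 to 73554506 valid reads per library; depth behind a peak is unknown. Peak boundaries were set in each list separately, which changes what a pair covers.

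Genes named are up to 4 per gene list with 5' UTR peaks in both genotypes, the 10 most enriched pairs, the 5 highest and 5 lowest ratios (FDR below 1e-5 in both lists), the 5 genes with most 5' UTR peaks, and the 5 peaks of lowest FDR found in each list alone; any others were picked with their values in view. The peaks and gene lists were chosen with earlier results of these data known. Alternatives were stricter enrichment, FDR and overlap thresholds, 1 peak per gene, other folds, centring, each library left out and the replicate number as a block; after seeing the data, comparison with 3' UTR peaks alone, pairs of like length and removal of recurring values were added. The overlap and test functions were tested on simulated data. The tools were Python 3.11.15, matplotlib 3.10.9, pandas 2.3.3, scipy 1.17.1 and numpy 2.4.6.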

Additional observations from a re-analysis of the deposited data

How the results depend on the processing

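Of 46 alternative values of the comparisons, 41 kept their direction and side of the threshold. The share of Tyrobp-/- 5' UTR peaks found in both genotypes, which differed from that of other peaks by -0.054 percentage points, turned to 0.98 (p = 0.165) with a reciprocal overlap of 50% (Fisher's exact test), 2.56 (p = 9.67e-06) with an FDR below 1e-5 in both lists and 0.91 (p = 0.125) without peaks at recurring values; the cause was not tested. The excess of pairs at least 2-fold higher in Tyrobp-/- mice came to 0.89 percentage points (Fisher's exact test, p = 0.169) at 1.5-fold, and the count of early genes with a WT 5' UTR peak, 13, to 8 with an FDR below 1e-5. For the GC content of the IP libraries, the difference of -0.78 percentage points ranged from -1.05 to -0.52 when each library was left out in turn, and with the replicate number as a block the paired difference was -0.78 (exact permutation test, two-sided, p = 0.25, the smallest possible). No paired analysis was possible for peaks because they were called on pooled samples. Peaks of few reads limit what can be compared, and the depth behind each is unknown.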
